A study of Mus musculus with 17 samples.

Results

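This account compares preCFUE, an early erythroid progenitor fraction of mouse bone marrow, with 4 other progenitor fractions measured beside it. Of 17 arrays in all, the 3 of the Lin-Sca1-Kit+Itga2b-FcgRlowSlamf1+Enghigh gate were preCFUE, and each array was placed by the gate in its title. The other 14 were 3 arrays of CLP (Lin-Sca1lowKitlowIL7r+Flk2+), 3 of preGM (Lin-Sca1-Kit+Itga2b-FcgRlowSlamf1-Englow), 5 of preMegE (Lin-Sca1-Kit+Itga2b-FcgRlowSlamf1+Englow) and 3 of MkP (Lin-Sca1-Kit+Itga2b+Slamf1+). The short names follow general knowledge of the scheme, in which CLP are common lymphoid progenitors, preGM lead to granulocytes and monocytes, preMegE to megakaryocytes and red cells, and MkP to megakaryocytes. All cells were sorted from adult marrow of mice aged 10 to 14 weeks, and the labels give no strain, genotype or treatment. A free-text label on all 17 arrays names a further gate that goes against the titles and was not used. The labels do not tie the arrays to individual mice or sorting runs. The p-values therefore reflect array-to-array spread alone, part of which may be technical.

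Red cell production runs from multipotent cells through progenitors committed jointly to megakaryocytes and red cells, then to erythroid-only progenitors that answer to erythropoietin and divide rapidly before hemoglobin accumulates. The transcription factors Gata1 and Klf1 drive that program, and its products include blood group proteins, the membrane skeleton, iron uptake and the heme synthesis enzymes. The preCFUE gate lies between the shared preMegE stage and the later colony-forming erythroid cell, the CFU-E.

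Values are RMA intensities (a summarised probe set brightness on a linear scale with no unit), and 1 probe set stands for each of 18193 genes. Differences are on the log2(intensity + 16) scale ± SE, on which a difference of 1 is a doubling for bright genes and an understated change for dim ones. They set preCFUE against the mean of the other 4 group means, in 1 limma fit of all 17 arrays, with p-values adjusted over all genes and a threshold of 0.05. A second test asks more: a gene is called higher or lower than every fraction when all 4 single differences share a sign and the largest of their p-values, adjusted over all genes, is under 0.05. The fraction with the smallest single difference is then the nearest fraction. Intensities are mean ± SD over n = 5 arrays in preMegE and n = 3 arrays in each other fraction.

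By the first test 3686 genes differed (20.3% of all), of which 2322 were higher (12.8%) and 1364 lower (7.5%) in preCFUE. In 952 genes (5.23%) all 3 preCFUE arrays lay above the 14 others and in 427 (2.35%) all 3 lay below them. These genes are described here because of that separation, which therefore supports nothing further. Of the 952, preMegE was the nearest fraction for 443, preGM for 318, MkP for 165 and CLP for 26. At the edge of this rule, Alg8 just entered, with a lowest preCFUE array of 199.75 against a highest other array of 199.73, and Kbtbd8 just missed, with 77.432 against 77.445. Among genes lying below, Tie1 just entered (10.941 against a lowest other array of 10.949) and Tlr1 just missed (5.758 against 5.753). The stricter test called 232 genes higher than every fraction (1.28%) and 138 lower than every fraction (0.759%). For 132 of the 232 and 89 of the 138 the nearest fraction was preMegE. Counts rested in part on single arrays: without preCFUE replicate 1, 1428 genes were higher than the mean of the 4 fractions, 137 higher than every fraction and 86 lower than every fraction, and without preCFUE replicate 3 the second of these was 145. Without preCFUE replicate 2 the third was 91, and the arrays of 1503 genes lay above all others.

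The arrays of preCFUE resembled each other (mean correlation of log2 values 0.984 to 0.988 with the other 2) more than they resembled preMegE, their closest other fraction (0.963 to 0.966). The log2 ratio of 3-prime to 5-prime Gapdh probe sets, which rises as RNA is shortened, was 2.85, 3.53 and 4.09 in preCFUE and ran from 2.72 to 5.12 in the others. CLP replicate 2 was the 1 array of 17 that correlated better with another fraction (preGM, 0.962) than with its own (0.948). Of 9 neutrophil markers none differed (also none at an unadjusted p under 0.05), where 20.3% of all genes did. Their summed intensity ran from 258 to 472 in preCFUE, inside the range of the others (123.2 in a CLP array to 1826 in a preGM array). None of 7 mature B and plasma cell, 9 T and NK cell, 9 macrophage or 5 eosinophil markers differed (limma; at an unadjusted p under 0.05, 1 T and NK cell and 1 macrophage marker were lower). Of the others, 2 of 9 mast cell and basophil markers (22.2%) and 1 of 9 endothelial and stromal markers (11.1%) were lower, where 7.5% of all genes were. Among 6 dendritic cell markers 1 was higher (16.7%, where 12.8% of all genes were). In bulk arrays, fewer cells of a type and less RNA per cell cannot be told apart.

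The genes behind the sort matched the gate in part, with 1 of 8 higher and 5 lower. Eng, the endoglin gene whose protein separates preCFUE from preMegE, gave 200.4, 226 and 286 on the 3 preCFUE arrays against 234 ± 16.2 in preMegE. Its difference from the mean of the 4 fractions did not pass (0.29 ± 0.12, adjusted p = 0.117). It passed with array weights at 0.40, median centring at 0.35, the mean over probe sets at 0.33 and without preGM replicate 3 at 0.33. Its other probe set passed in the same direction (0.37, adjusted p = 0.04). Slamf1, also a positive marker of the gate, gave 19.01, 19.7 and 22.6, below all preMegE and MkP arrays (101.2 ± 13.2 and 58.6 ± 7.19) and above preGM (10.6 ± 1.75). Flt3 (-2.41 ± 0.14), Il7r (-1.95 ± 0.26) and Itga2b (-1.83 ± 0.14) fell, as did Fcgr2b (-0.51 ± 0.12, adjusted p = 0.00611; -0.32 and adjusted p = 0.0703 without preCFUE replicate 1). Without CLP among the compared fractions, Il7r no longer passed (-0.58, adjusted p = 0.171). Kit, the stem cell factor receptor, rose by 0.90 ± 0.22, a call that was lost without CLP (0.46) or without preCFUE replicate 1 (0.85). The other probe set of Kit did not pass (0.27, adjusted p = 0.331), and neither did the others of Slamf1 (-0.10 and -0.33).

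Sphk1, Mt2 and Rhd, the markers given for the fraction, stood far above every other array. Sphk1 encodes sphingosine kinase 1, which makes the lipid signal sphingosine-1-phosphate, and it gave 744, 648 and 683 on the 3 preCFUE arrays against 9.29 to 26.7, median 16.8, on the 14 others. The groups did not overlap, and the other fractions sat at the dim end of the table, in which 47.3% of all values lay under 16. Its difference was 4.46 ± 0.12 from the mean of the 4 fractions (adjusted p = 1.3e-11) and 4.27 ± 0.14 from preMegE, the nearest (adjusted p = 1.15e-09), the largest rise over a nearest fraction of all genes. Other genes are given in the same way: the 3 preCFUE arrays, the range and median of the other 14, then the difference from the mean of the 4 fractions or, where a fraction is named, from that nearest one. Mt2, which encodes the zinc- and copper-binding metallothionein 2, gave 1388, 1757 and 1682 against 22.9 to 145, median 55.9 (4.50 ± 0.12, and 3.55 ± 0.13 from preMegE, adjusted p = 2.23e-09). Rhd, the gene of the Rh blood group antigen, gave 539.6, 423 and 505 against 15.5 to 65.1, median 27.3 (3.45 ± 0.15, and 2.85 ± 0.18 from preMegE, adjusted p = 3.13e-07). Of the other fractions preMegE had the highest mean for all 3 genes. Its arrays lay above those of CLP, preGM and MkP for Mt2, but overlapped preGM and MkP arrays for Sphk1 and CLP arrays for Rhd.

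**Figure D1:**
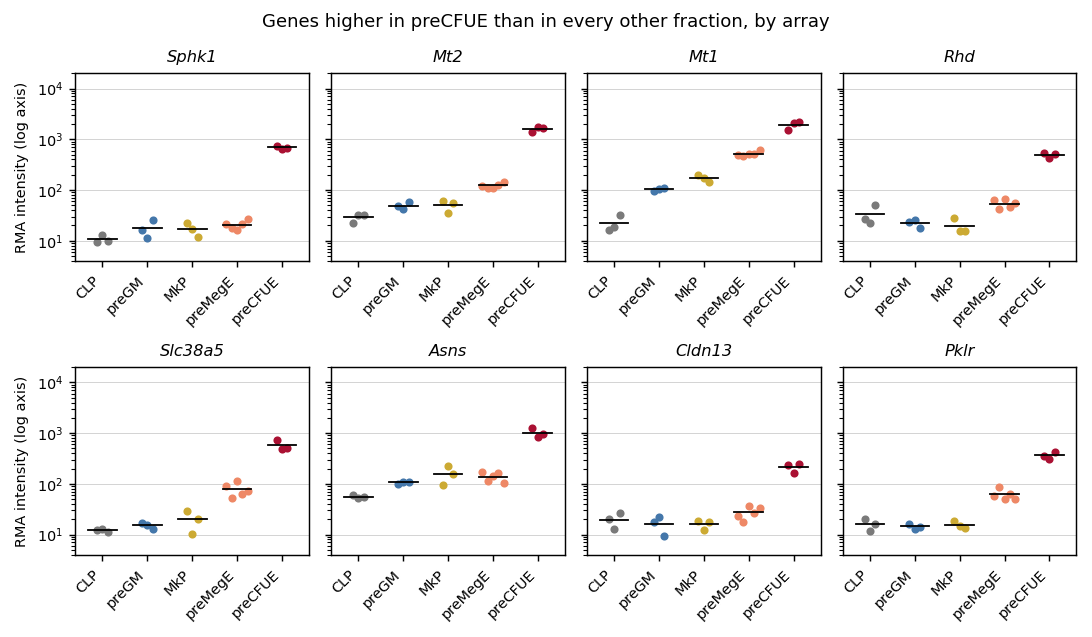
Intensity on a log axis of 8 genes higher in preCFUE than in every fraction. Points are arrays, short lines are means (n = 5 for preMegE, n = 3 for each other fraction), and in each panel the 3 preCFUE points lie above all 14 others, with Sphk1 at 648 to 744 against at most 26.7 elsewhere.

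The pathway of Sphk1 split. Of 18 genes of sphingosine-1-phosphate metabolism, export and sensing, 5 were higher, counting Sphk1 itself, and 4 lower. These are 27.8% and 22.2%, where 12.8% and 7.5% of all genes were higher and lower. The median difference of the 18 was 0.01, against -0.01 over all genes, and without preCFUE replicate 3 the higher count was 3. The red cell exporter Mfsd2b gave 521, 555 and 467 and rose by 1.93 ± 0.12 over the mean of the fractions, but lay below preMegE (982 ± 175). Spns2, the exporter known from endothelium, gave 163, 138 and 178 against 246 to 999, median 644, and fell (-1.60 ± 0.14). Its call as lower than every fraction (adjusted p = 0.0312) was lost in 8 of the 17 fits that left out 1 array. Sgpp1, a phosphatase that removes the lipid's phosphate, rose by 1.59 ± 0.22.

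The metallothionein pair differed in its level outside preCFUE. Mt1 lies next to Mt2 on chromosome 8, with the RefSeq start sites 6471 bases apart, and the sequences of the pair are alike enough that probe sets may share signal. Mt1 gave 1521, 2052 and 2145 against 16.2 to 618, median 157 (3.71 ± 0.13, adjusted p = 1.62e-10). In preMegE it already stood at 521 ± 57.3, above all arrays of CLP, preGM and MkP, so its difference from that nearest fraction was 1.83 ± 0.14 where that of Mt2 was 3.55. Of 20 metallothionein and zinc transport genes, 4 were higher (8 with array weights, 6 without CLP replicate 2) and 3 lower (1 without preCFUE replicate 1, 2 or 3 and 1 with median centring). The 4 and 3 are 20% and 15%, where 12.8% and 7.5% of all genes were higher and lower. Mt1 and Mt2 alone of the 20 were called higher than every fraction.

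The promoter windows of RefSeq (build GRCm38.p6, 250 bases before to 50 after a start) were scanned on both strands for 4 short motifs, and are shown for genes that moved together. The metal response core (TGCACNC or TGCGCNC) occurred in 25.7% of 32851 windows. It occurred 4 times in the Mt2 window at chr8:94172368-94172667 and 3 times in the Mt1 window at chr8:94178839-94179138, both on the plus strand, where capitals mark the matches on either strand and the letters run 5′ to 3′ on the gene's strand.
Mt2: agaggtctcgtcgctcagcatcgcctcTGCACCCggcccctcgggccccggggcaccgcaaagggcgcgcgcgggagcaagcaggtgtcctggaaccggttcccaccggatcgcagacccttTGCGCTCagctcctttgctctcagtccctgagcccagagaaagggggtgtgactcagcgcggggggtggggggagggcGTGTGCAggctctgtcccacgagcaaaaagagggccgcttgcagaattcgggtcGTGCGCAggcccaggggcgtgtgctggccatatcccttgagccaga
Mt1: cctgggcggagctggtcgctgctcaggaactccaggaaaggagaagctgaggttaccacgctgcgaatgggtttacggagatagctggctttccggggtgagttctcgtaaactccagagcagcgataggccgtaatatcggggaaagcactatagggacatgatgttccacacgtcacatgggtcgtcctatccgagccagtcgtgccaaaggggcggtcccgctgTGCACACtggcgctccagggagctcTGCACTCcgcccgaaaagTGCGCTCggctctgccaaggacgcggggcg
The core is the site known to be read by the zinc-sensing factor Mtf1, but a match here describes letters and not binding.

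More membrane and blood group genes of the red cell were higher than lower in preCFUE. Of 23 measured, 13 were higher and 2 lower (median 0.60, where 12.8% and 7.5% of all genes were), and Rhd, Cldn13, Rhag, Ermap and Ank1 were called higher than every fraction, Slc2a1 and Cd47 lower. Rhag, the partner of the Rh proteins in the red cell membrane, gave 595, 591 and 724 against 7.32 to 259.6, median 14.2 (3.81 ± 0.15, and 1.62 ± 0.17 from preMegE). Ermap, which carries the Scianna blood group, gave 3905, 4563 and 3088 against 25.3 to 1630.3, median 122 (4.52 ± 0.29, adjusted p = 7.14e-08). The groups did not overlap, but preMegE arrays reached 1630.3 for Ermap. Its call against the nearest fraction (1.60 ± 0.33, adjusted p = 0.0197) was lost without preCFUE replicate 1 (1.58), preCFUE replicate 2 (1.47) or preMegE replicate 5 (1.50), and with quantile normalization (1.41). Cldn13, a claudin gene used as a marker of erythroid cells, gave 238, 161 and 244 against 9.48 to 36.7, median 19.5 (2.41 ± 0.18 from preMegE, adjusted p = 2.95e-06). Ank1, the red cell ankyrin, gave 352, 631 and 463 against 47.4 to 200.2, median 82.4 (1.43 ± 0.20 from preMegE, adjusted p = 0.00107). Of its 3 other probe sets 1 passed the same way and 2 did not pass. By contrast Aqp1, the Colton blood group water channel, and Kel, the Kell antigen, rose over the mean of the fractions (3.26 ± 0.21 and 2.52 ± 0.16) with values in preMegE (1015 ± 240.3 and 157 ± 52.4) that overlapped preCFUE (1069 ± 296 and 249 ± 22.2). For Kel the overlap rested on preMegE replicate 3 alone (250.2), the other 4 preMegE arrays lying at 130.3 to 135.2.

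The windows of Rhd, Rhag, Ermap and Sphk1 were scanned for a GATA motif (AGATAA or TGATAA, or either with G as its last base), present in 29.8% of all windows. Rhd (chr4:134864286-134864585, plus strand), Rhag (chr17:40810899-40811198, plus) and Ermap (chr4:119189946-119190245, minus) each held 1, in capitals. The fourth motif, the CACCC box (CCNCNCCC) of Klf1-type factors, was in 49.5% of all windows, once in that of Rhd, 3 times in that of Mt2 and in neither of Rhag and Ermap. Sphk1 has 5 entries on chromosome 11, of which 3 held no GATA motif and 2 overlapping ones held 1. The first of those 2 (chr11:116532194-116532493, plus, with 2 CACCC boxes) is shown; the array does not tell which start is used.
Rhd: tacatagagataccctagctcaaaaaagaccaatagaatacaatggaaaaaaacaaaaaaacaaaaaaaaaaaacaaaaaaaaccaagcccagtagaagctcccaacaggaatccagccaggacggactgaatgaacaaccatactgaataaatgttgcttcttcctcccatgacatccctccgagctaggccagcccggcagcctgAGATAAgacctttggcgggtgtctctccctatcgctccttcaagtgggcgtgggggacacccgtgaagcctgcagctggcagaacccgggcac
Rhag: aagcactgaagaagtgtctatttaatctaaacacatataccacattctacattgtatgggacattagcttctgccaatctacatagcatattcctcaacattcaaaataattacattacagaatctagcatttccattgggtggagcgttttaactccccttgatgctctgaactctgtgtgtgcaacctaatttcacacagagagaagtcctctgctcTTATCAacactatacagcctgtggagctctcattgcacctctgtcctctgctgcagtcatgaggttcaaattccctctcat
Ermap: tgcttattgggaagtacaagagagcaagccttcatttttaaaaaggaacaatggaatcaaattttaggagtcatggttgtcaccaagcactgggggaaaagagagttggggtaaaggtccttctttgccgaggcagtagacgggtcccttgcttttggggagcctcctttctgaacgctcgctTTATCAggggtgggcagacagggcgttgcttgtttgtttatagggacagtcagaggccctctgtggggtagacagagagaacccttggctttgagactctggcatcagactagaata
Sphk1: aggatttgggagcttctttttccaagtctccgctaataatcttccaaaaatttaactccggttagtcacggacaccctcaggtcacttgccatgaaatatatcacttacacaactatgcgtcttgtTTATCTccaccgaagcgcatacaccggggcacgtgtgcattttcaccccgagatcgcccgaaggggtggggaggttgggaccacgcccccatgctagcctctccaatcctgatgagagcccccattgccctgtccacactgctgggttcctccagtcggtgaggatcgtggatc

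The regulators of the erythroid program were also high in preMegE. Of 22 erythroid transcription regulators 10 were higher and 1 lower than the mean of the 4 fractions (median 0.48), but by limma 0 of 22 were called higher than every fraction (3 at an unadjusted p under 0.05); the higher count was 6 without preCFUE replicate 2 and 6 with quantile normalization. Klf1 gave 3065, 2678 and 3009 in preCFUE, a rise of 3.42 ± 0.18 (adjusted p = 1.2e-08), and stood at 2142 ± 611 in preMegE, from which its difference was 0.48 ± 0.21 (adjusted p = 0.568). Gata1 gave 1426, 1338 and 1436, a rise of 2.41 ± 0.13, at a difference of 0.21 ± 0.15 from preMegE (1219 ± 168, adjusted p = 1). The arrays of the 2 fractions overlapped for both genes. Tal1 (1.28 ± 0.11) and Gfi1b (1.87 ± 0.15), partners of Gata1 in erythroid gene control, rose likewise with preMegE the nearest fraction. Epor, the erythropoietin receptor, gave 270.4, 220.3 and 201 against 166 ± 39.8 in preMegE and rose by 1.68 ± 0.17.

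Of the 18 genes of erythropoietin receptor signalling, Epor was the 1 that rose, and 7 fell (4 without preCFUE replicate 3). These are 5.6% and 38.9%, where 12.8% and 7.5% of all genes were higher and lower. Among those that fell was Pim1, a survival kinase induced by cytokines, at 83.8, 92.4 and 141 against 229 to 901, median 315 (-1.86 ± 0.15, and -1.21 ± 0.19 from MkP, adjusted p = 0.00259). Bcl2, which blocks cell death, also fell below every fraction, at 144, 111 and 149.8 against 308 to 1468, median 699 (-2.39 ± 0.17, adjusted p = 1.88e-07). Of 14 BCL2 family genes, 3 were lower and 1 higher (21.4% and 7.1%, where 7.5% and 12.8% of all genes were).

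**Figure D2:**
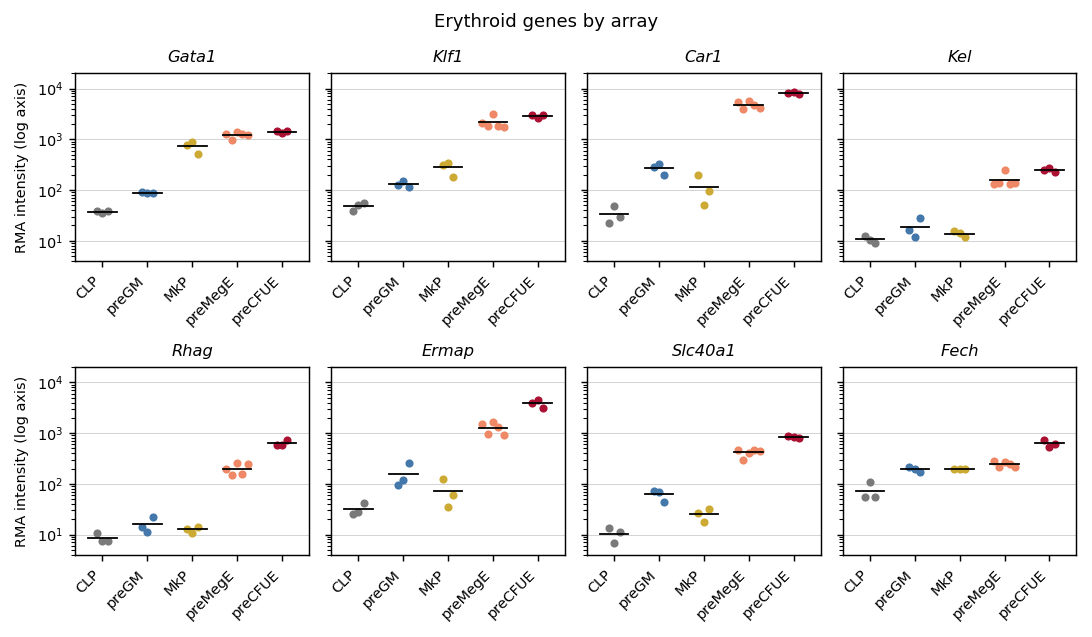
Intensity on a log axis of 8 erythroid genes, with points for arrays and short lines for means (n = 5 for preMegE, n = 3 for each other fraction). Gata1, Klf1 and, through 1 preMegE array, Kel overlap between preMegE and preCFUE, whereas for Car1, Rhag, Ermap, Slc40a1 and Fech all 3 preCFUE arrays lie above the preMegE arrays.

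Several red cell enzymes rose. Of 17 enzyme and globin genes measured, 8 were higher and 0 lower (median 0.55). Car1, carbonic anhydrase 1, showed the largest rise of all genes whose arrays lay apart, at 8137, 8463 and 7728 against 22.1 to 5696, median 242 (4.79 ± 0.25, adjusted p = 1.09e-08), although preMegE reached 5696 and the difference from it (0.78 ± 0.29, adjusted p = 0.342) did not pass. Pklr, the red cell and liver pyruvate kinase, gave 350.3, 314 and 433 against 11.8 to 87.5, median 17.5, and was called higher than every fraction (2.31 ± 0.14 from preMegE, adjusted p = 3.13e-07). Blvrb, a reductase of heme breakdown products, gave 933, 654 and 1064 against 14.95 to 429.5, median 68.0 (1.22 ± 0.22 from preMegE, adjusted p = 0.00664; adjusted p = 0.0519 without preCFUE replicate 3). Hebp1, a heme-binding protein gene, was the third so called (0.74 ± 0.15 from its nearest fraction, adjusted p = 0.018), a call lost without preCFUE replicate 1 or 2. Ces2g (3.60 ± 0.15) and Car2 (2.22 ± 0.30) rose with preMegE nearest. Of 10 listed genes of later red cell precursors only 6 were measured. Hba-a1 was dim on every array, at 8.88, 8.97 and 8.94 in preCFUE against 7.08 to 11.4 on the 14 others. Slc4a1 (band 3) gave 10.4, 9.43 and 11.03 against 9.39 to 17.1. Alas2 gave 10.4, 13.5 and 14.4 against 9.66 to 26.0, and Epb42 11.7, 17.04 and 14.7 against 10.7 to 24.1. These dim values do not set preCFUE apart from the other fractions. Tspo2 was the exception among these later genes, at 225, 174 and 176 in preCFUE and 234 ± 62.5 in preMegE.

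Most genes of heme synthesis and breakdown rose. Of 17 measured, 11 were higher and 0 lower (median 0.91), and the count was 6 without preCFUE replicate 1. Fech, which inserts iron into heme at the last step, gave 740.2, 525 and 608 against 55.2 to 280.1, median 196 (1.84 ± 0.15, and 1.29 ± 0.17 from preMegE, adjusted p = 0.000598). Alad, at the second step, gave 2258, 1509 and 1919 (2.05 ± 0.21) and Urod, at a middle step, 1892, 1489 and 1713 (1.87 ± 0.18). Their differences from preMegE were 0.99 ± 0.24 (adjusted p = 0.0511) and 0.69 ± 0.20 (adjusted p = 0.132). Cpox rose by 1.49 ± 0.20, and its call against every fraction (adjusted p = 0.0416) was lost in 11 of 17 fits without 1 array. Among 17 iron genes 9 were higher and 2 lower (median 0.67). Slc40a1, the iron exporter ferroportin, gave 874, 830.0 and 802 against 6.88 to 474, median 57.4 (3.46 ± 0.14, and 1.00 ± 0.16 from preMegE, adjusted p = 0.00336). Tfrc, the transferrin receptor, gave 1339.9, 1008 and 827 and rose by 1.50 ± 0.23, but CLP was also high (808 ± 408). Tfr2, its relative that senses iron load and binds the erythropoietin receptor, gave 1984, 2587 and 2424 with preMegE at 1769.6 ± 322 (2.39 ± 0.13). Glrx5, needed for iron-sulfur clusters, rose by 1.66 ± 0.20.

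Slc38a5 and Asns stood highest above the other fractions among amino acid genes. Slc38a5, a glutamine and serine transporter, gave 719.5, 489.6 and 512 against 10.3 to 114, median 18.9 (3.82 ± 0.18, and 2.65 ± 0.20 from preMegE, adjusted p = 2.95e-06). Asns, asparagine synthetase, gave 1235, 855 and 967 against 52.9 to 221, median 110.0, with MkP nearest (2.62 ± 0.23, adjusted p = 1.33e-05). Both sets of arrays were far apart, and preMegE was no higher than MkP for Asns (139 ± 30.1 and 157 ± 62.2). Of 32 genes of the Atf4 amino acid response 8 were higher (25%) and 1 lower (3.1%), with a median of 0.08. Over all genes 12.8% were higher and 7.5% lower. Asns, Slc7a5 and Eif4ebp1 were called higher than every fraction. The calls of Slc7a5 (1.33 ± 0.19 from the mean of the 4 fractions) and Eif4ebp1 (1.29 ± 0.10) against every fraction were lost in 7 and 4 of the 17 fits without 1 array. Atf4 itself gave 599, 931 and 1152 against 557 to 1017, median 772, and did not pass (0.15 ± 0.17, adjusted p = 0.651). Its sign turned with quantile normalization and without preCFUE replicate 3. Of 24 genes of the SLC7 and SLC38 transporter families, taken after the values had been seen, 2 were higher and 2 lower. Each count is 8.3%, near the shares over all genes. The Asns window (chr6:7693160-7693459, minus strand) held 1 amino acid response core (TGATGNAA, in capitals), which occurred in 3.97% of all windows.
Asns: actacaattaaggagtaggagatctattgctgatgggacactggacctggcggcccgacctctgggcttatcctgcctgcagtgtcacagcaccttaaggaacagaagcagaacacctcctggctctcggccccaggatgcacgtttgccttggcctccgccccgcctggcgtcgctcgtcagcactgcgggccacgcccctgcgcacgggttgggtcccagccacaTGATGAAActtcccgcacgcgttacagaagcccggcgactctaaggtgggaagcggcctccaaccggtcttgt

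Most genes of DNA replication and mitosis were higher. Of 20 G2 and M phase genes 17 were higher and 0 lower (median 0.97), among them Cenpa (1.87 ± 0.28) and Bub1 (1.61 ± 0.29), and 11 were higher without preCFUE replicate 1; by limma 0 of 20 were called higher than every fraction (2 at an unadjusted p under 0.05). Of 23 S phase genes 13 were higher (7 without preCFUE replicate 1), including Cdc6 (1.76 ± 0.36) and Gmnn (1.12 ± 0.20). Mcm10, a replication initiation factor, was called higher than every fraction (0.75 ± 0.14 from MkP, adjusted p = 0.011; adjusted p = 0.0565 without preCFUE replicate 1, and 0.34 with quantile normalization, adjusted p = 0.948). In the G1 list of 26 genes, 2 were higher and 4 lower (7.7% and 15.4%, where 12.8% and 7.5% of all genes were). The lower count was 7 with quantile normalization and 8 with array weights. Without CLP replicate 2 the counts were 7 higher and 6 lower. The 2 calls against every fraction went opposite ways. Ccne1, cyclin E1, gave 837, 597 and 969 against 83.0 to 293, median 146 (2.21 ± 0.20, and 1.95 ± 0.26 from MkP, adjusted p = 0.000537). Mycn gave 26.3, 23.6 and 24.1 against 161 to 1219, median 428, and fell (-3.39 ± 0.23, and -2.51 ± 0.30 from preGM, adjusted p = 0.000203). Its relative Myc did not pass, at 653, 743 and 578 against 218 to 1004, median 490.0 (0.53 ± 0.21, adjusted p = 0.0952; it passed with array weights at 0.59 and without preGM replicate 3 at 0.61). Pvt1, the noncoding neighbour of Myc, gave 429, 378 and 371 against 21.6 to 98.8, median 43.3 (2.14 ± 0.18 from preMegE, adjusted p = 1.1e-05).

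Of 18 genes of nucleotide and folate synthesis 14 were higher and 1 lower (median 0.96). Mthfd1, a folate enzyme that supplies carbon units for purines and thymidylate, gave 3032, 3652 and 3123 against 491 to 1192, median 778 (2.16 ± 0.15, and 1.87 ± 0.17 from preMegE, adjusted p = 2.33e-05). Its groups did not overlap, and the other means ran from 545 ± 80.3 in CLP to 898 ± 213 in preMegE. Atic, Mthfd1l and the folate carrier Slc19a1 rose by 1.26 ± 0.20, 1.04 ± 0.12 and 1.12 ± 0.15. Their calls against every fraction were lost in 13, 4 and 4 of the 17 fits without 1 array. Of 25 ribosome biogenesis genes 19 were higher and 0 lower (median 0.79), with 4 called higher than every fraction. Nolc1, a nucleolar chaperone, gave 888, 716 and 611 against 187 to 423, median 284 (1.06 ± 0.19 from preGM, adjusted p = 0.00849; adjusted p = 0.0556 without preCFUE replicate 1). With the mean over probe sets it was 0.49 (adjusted p = 0.992), and its 2 other probe sets did not pass. The same call of Nop56, Rrp9 and Rrp12 was lost in 6, 4 and 10 fits without 1 array. Nop56 also lost its rise over the mean of the 4 fractions (0.68 ± 0.09) with the mean over probe sets (0.39, with an adjusted p = 0.147).

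Whole gene families of mitochondria and protein production, taken after the values had been seen, had more genes higher than lower. Of 76 mitochondrial ribosomal protein genes 62 were higher and 0 lower (median 0.89; 38 without preCFUE replicate 1 and 40 without preCFUE replicate 3), with Mrpl47 at 555, 412 and 552 against 101.0 to 260.2, median 208 (1.09 ± 0.15 from preGM, adjusted p = 0.000685). Of 82 respiratory chain and ATP synthase genes 55 were higher and 1 lower (median 0.81; 34 higher without preCFUE replicate 3), and of 34 aminoacyl-tRNA synthetase genes 23 were higher and 0 lower (median 0.76). Hars, the histidyl-tRNA synthetase, gave 4002, 4577 and 4189 against 1176 to 2249, median 1847 (1.08 ± 0.12 from preMegE, adjusted p = 0.000326). Of 19 nucleoporin genes 12 were higher (median 0.61), Nup155 by 1.39 ± 0.17. For 40 proteasome subunits the count was 20, and it was 7 without preCFUE replicate 1, 11 without preCFUE replicate 3, 31 without CLP replicate 2 and 13 when CLP was left out. Cox5b, a subunit of cytochrome oxidase, stood at 7959.6 ± 245 in preCFUE, 5452 ± 545 in MkP and 2676 ± 299 in CLP, its lowest fraction. With quantile normalization the medians were 0.67 for mitochondrial ribosomal proteins, 0.57 for the respiratory chain and 0.55 for the proteasome, and Cox5b, C1qbp, Cox6a1 and Psmb3 were no longer called higher than every fraction. Mdh2 lost that call in 13 of 17 fits without 1 array. C1qbp, a mitochondrial matrix protein gene, was the brightest gene called higher than every fraction, at 12492, 14646 and 13097 against 7880.2 to 10089, median 8900.0.

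**Figure D3:**
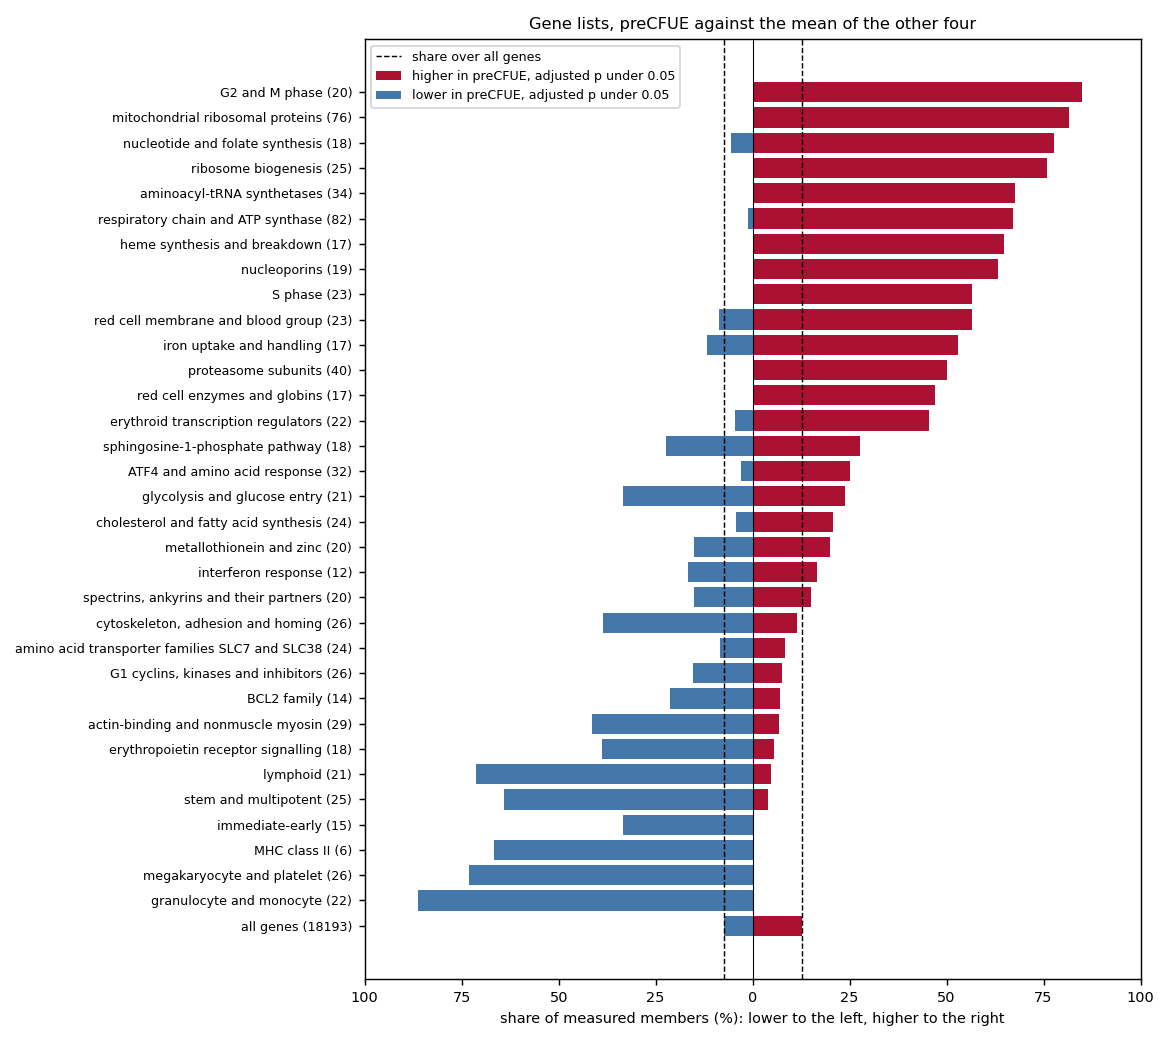
Share of the measured members (number in brackets) of each gene list or family that were higher (right) or lower (left) in preCFUE than the mean of the other 4 fractions at an adjusted p under 0.05, with dashed lines at the shares over all genes (12.8% and 7.5%). Growth, mitochondrial, heme and red cell groups lean right and the granulocyte, megakaryocyte, lymphoid and stem cell groups lean left, with 17 of 20 G2 and M phase genes higher and 19 of 22 granulocyte and monocyte genes lower.

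Other genes that stood above every fraction belonged to no list. C1qtnf12, a secreted adipokine relative, gave 5504, 5369 and 6256 against 66.2 to 1399, median 771 (2.18 ± 0.21 from preMegE, adjusted p = 2.64e-05). Atp1b2, a sodium pump subunit, gave 830.3, 1412 and 1002 against 18.2 to 657, median 62.2 (0.99 ± 0.18 from its nearest fraction, adjusted p = 0.00725). Garem1 (2.22 ± 0.22), Nxpe2 (2.18 ± 0.15), the progestin and adipoQ receptor family gene Paqr9 (2.11 ± 0.10) and the tetraspanin Tspan8 (2.01 ± 0.20) each rose above preMegE, their nearest fraction. Paqr9 gave 137, 109 and 137 against 9.23 to 21.8, median 11.6.

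Among the genes that fell below every fraction were several of the actin skeleton. Tmsb4x, thymosin beta 4, which holds actin monomers, gave 91.6, 53.6 and 98.1 against 644 to 3571, median 1209 (-4.01 ± 0.16, and -2.98 ± 0.18 from preMegE, adjusted p = 3.01e-07), the largest fall below a nearest fraction. Limd2, a LIM domain protein gene, gave 44.8, 26.8 and 58.6 against 261 to 3816, median 867 (-2.50 ± 0.23 from MkP). Coro1a, which remodels actin in blood cells, gave 92.0, 37.2 and 83.5 against 261 to 1897, median 682 (-2.18 ± 0.24 from preMegE). For these 3 genes every other array lay above the highest preCFUE array. The focal adhesion gene Zyx (-2.69 ± 0.22) and the intermediate filament gene Vim (-2.64 ± 0.13) were also lower than every fraction, and Anxa1 (-2.28 ± 0.24) was so called but lost it in 12 of 17 fits without 1 array. Of 26 genes of cytoskeleton, adhesion and homing 10 were lower and 3 higher (median -0.33). In the actin-binding and nonmuscle myosin family, taken after the values had been seen, 12 of 29 were lower and 2 higher, 8 of them lower than every fraction. Myh10, the nonmuscle myosin heavy chain IIB, went the other way, at 1165, 1733 and 1148 against 16.2 to 419, median 42.6 (4.17 ± 0.19, and 2.03 ± 0.22 from preMegE, adjusted p = 7.44e-05).

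**Figure D4:**
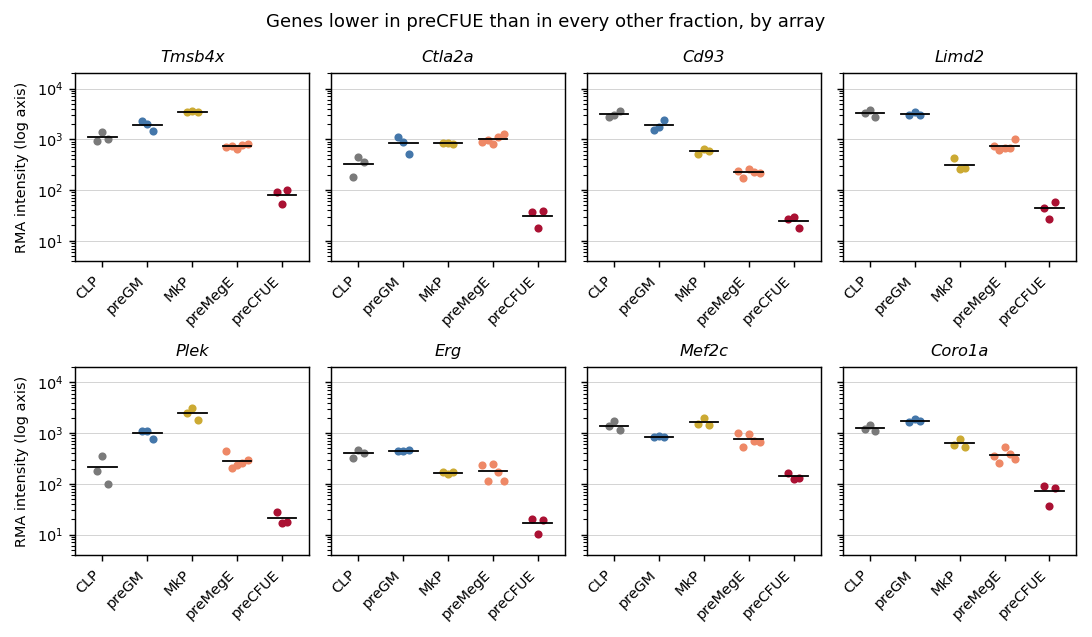
Intensity on a log axis of 8 genes lower in preCFUE than in every fraction, with points for arrays and short lines for means (n = 5 for preMegE, n = 3 for each other fraction). In each panel the 3 preCFUE arrays lie below the 14 others, Tmsb4x at 53.6 to 98.1 against at least 644 elsewhere.

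Other related genes, some of them picked after their values were seen, also went opposite ways. Against the rise of Pklr, the other pyruvate kinase gene Pkm gave 19.5, 23.4 and 23.4 against 53.5 to 619, median 212, and fell below every fraction (-2.79 ± 0.21, and -1.43 ± 0.24 from preMegE, adjusted p = 0.00452). Slc2a1, the glucose transporter Glut1, gave 12.5, 18.5 and 12.4 against 69.5 to 244, median 177, and fell as well (-2.51 ± 0.08, and -1.63 ± 0.10 from preMegE, adjusted p = 3.01e-07). Of 21 genes of glycolysis and glucose entry, also taken after the values had been seen, 5 were higher and 7 lower (23.8% and 33.3%). Of 20 genes of spectrins, ankyrins and their partners, again taken after the values had been seen, 3 were higher and 3 lower. Ank1 was among the higher. Each count is 15%, where 12.8% of all genes were higher and 7.5% lower, so the higher share was near that of all genes. The median was -0.10, and 5 were lower when CLP was left out. The non-erythroid spectrin Sptan1 gave 47.1, 51.7 and 54.7 against 199 to 2312, median 1126 (-3.74 ± 0.18, and -1.95 ± 0.20 from preMegE, adjusted p = 6.56e-05). Sptbn1 gave 78.1, 119 and 90.6 against 156 to 2272, median 1087 (-3.09 ± 0.21). The call of Sptbn1 against every fraction (adjusted p = 0.00845) was lost without preCFUE replicate 1 (adjusted p = 0.0645). Of its 5 other probe sets 1 passed the same way and 4 did not pass. For both spectrins preMegE was already low (249 ± 59.6 and 274 ± 96.4). Cd47, the marker that protects cells from being engulfed, differed by -1.04 ± 0.13, and its call as lower than every fraction was lost in 4 of 17 fits without 1 array.

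**Figure D5:**
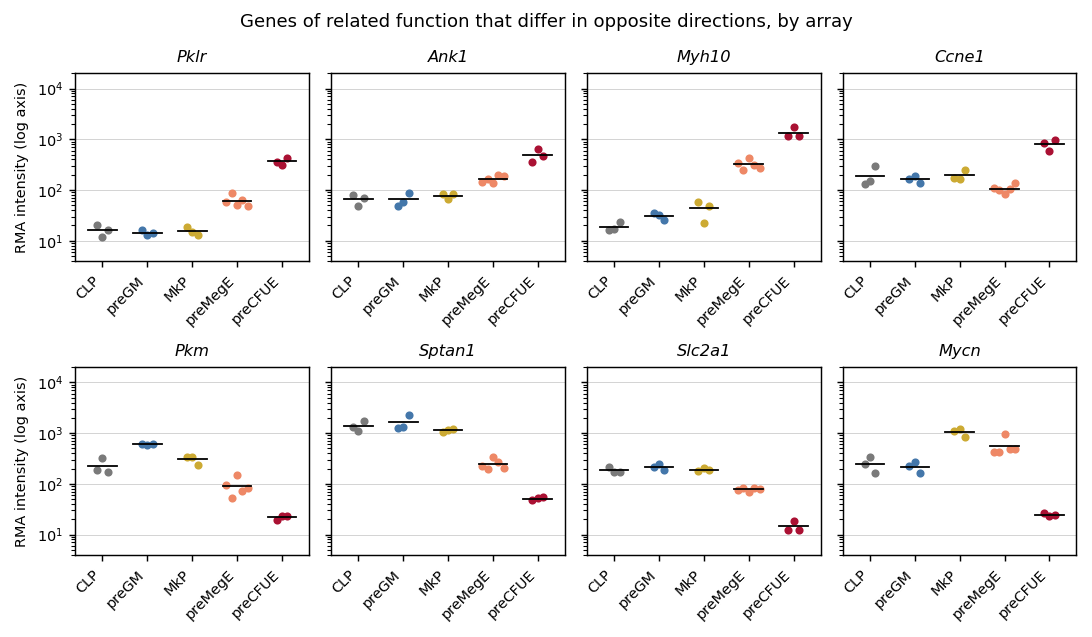
Intensity on a log axis of genes that rose or fell, with points for arrays and short lines for means (n = 5 for preMegE, n = 3 for each other fraction). Pklr and Pkm are both pyruvate kinase genes, and Ank1 and Sptan1 both belong to the spectrin and ankyrin family. Ccne1 and Mycn share only the G1 list, and Myh10 and Slc2a1 are not a related pair. The upper row (Pklr, Ank1, Myh10, Ccne1) is highest and the lower row (Pkm, Sptan1, Slc2a1, Mycn) lowest in preCFUE.

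Most stem cell genes fell, and Erg, Meis1 and Runx1 went below every fraction. Of 25 genes of stem and multipotent cells 16 were lower and 1 higher (median -0.54). Erg, a transcription factor of stem cells and megakaryocytes, gave 19.9, 10.0 and 19.7 against 112 to 472, median 242 (-3.13 ± 0.19, and -2.48 ± 0.25 from MkP, adjusted p = 4.39e-05). Meis1, a partner of the Hox factors, gave 41.8, 28.3 and 41.6 against 95.0 to 1324, median 558 (-2.17 ± 0.41 from CLP, adjusted p = 0.00978). Runx1, a master factor of blood formation, was 95.4, 166 and 148 against 261 to 679.7, median 405 (-1.17 ± 0.22 from preMegE, adjusted p = 0.011; adjusted p = 0.0873 without preCFUE replicate 1). Cd34 gave 12.5, 11.98 and 13.5 against 34.8 to 2153, median 106, a separation whose difference from preMegE (-1.02 ± 0.27, adjusted p = 0.0815) did not pass. Cd93, a surface glycoprotein of early progenitors, showed the largest fall against the 4 fractions among genes whose arrays lay apart, at 26.3, 29.0 and 17.6 against 172 to 3561, median 608 (-4.57 ± 0.14, and -2.57 ± 0.16 from preMegE, adjusted p = 3.01e-07). Of 4 other probe sets of the gene 1 passed the same way and 3 did not pass.

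Genes of the other lineages were mostly lower than the mean of the fractions, though few were lower than every fraction. Of 26 megakaryocyte and platelet genes 19 were lower and 0 higher (median -0.94), and Plek, Mef2c and Fli1 were lower than every fraction. Plek, a platelet and leukocyte signalling protein gene, gave 28.1, 16.8 and 17.5 against 97.8 to 3059.5, median 397 (-2.49 ± 0.36 from CLP, adjusted p = 0.00143; -0.94 and adjusted p = 0.0672 when its probe sets were averaged). Mef2c gave 163, 122.9 and 132 against 524 to 2016, median 971 (-2.30 ± 0.20 from preMegE, adjusted p = 1.5e-05). Fli1, which drives megakaryocyte genes, gave 26.0, 51.5 and 48.9 against 93.5 to 725, median 209.9 (-1.58 ± 0.30 from its nearest fraction, adjusted p = 0.0173). That call was lost without preCFUE replicate 1 (adjusted p = 0.104) or CLP replicate 2 (adjusted p = 0.0687). Of 22 granulocyte and monocyte genes 19 were lower and 0 higher (median -1.54). Lyz1, a lysozyme gene whose near-identical copy Lyz2 can share its signal, gave 51.4, 51.2 and 33.6 against 191 to 1948, median 445 (-2.37 ± 0.26 from preMegE, adjusted p = 0.000112). Nkg7, a granule membrane protein gene, gave 44.7, 41.7 and 31.9 against 153 to 542, median 357 (-2.16 ± 0.25 from CLP). Mpo, myeloperoxidase, differed by -3.13 ± 0.36 and was highest in preGM (7503 ± 923), while preCFUE arrays (16.3, 19.8 and 66.6) overlapped MkP. Of 21 lymphoid genes 15 were lower and 1 higher, as Dntt with 7813 ± 2307 in CLP and 12.6, 19.9 and 19.3 in preCFUE, and 6 were lower when CLP was left out; by limma 0 of 21 were called lower than every fraction (1 at an unadjusted p under 0.05).

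Further genes that fell below every fraction belonged to no list. Ctla2a, a cathepsin inhibitor gene, gave 36.6, 18.1 and 39.3 against 184 to 1297, median 834 (-2.80 ± 0.31 from CLP, adjusted p = 9.31e-05). Adgrg3, an adhesion G protein-coupled receptor gene, gave 77.9, 39.1 and 83.3 against 368 to 3013, median 694 (-2.63 ± 0.17 from preMegE). The differences from the nearest fraction were -2.38 ± 0.40 for Sla, an adaptor that dampens antigen receptor signals, -2.33 ± 0.28 for Glipr1, -2.39 ± 0.14 for the uncharacterised transcript AI504432, -1.80 ± 0.19 for Itih5, -1.74 ± 0.30 for the class II chaperone gene H2-Ob and -2.21 ± 0.42 for the protease inhibitor Serpinb1a. Serpinb1a lost the call without preCFUE replicate 1 (adjusted p = 0.0627) or replicate 2 (adjusted p = 0.0606). On the log2(intensity + 64) scale Serpinb1a (-1.27, adjusted p = 0.178) and H2-Ob (-0.96, adjusted p = 0.0829) lost it too.

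At an unadjusted p under 0.05, 0 genes were lower in each list or family of heme, enzyme, division, growth and mitochondrial genes given above with 0 lower, and 0 granulocyte and 1 megakaryocyte gene were higher. Of 24 genes of cholesterol and fatty acid synthesis 5 were higher and 1 lower (20.8% and 4.2%, where 12.8% and 7.5% of all genes were). Without preCFUE replicate 1 or 3 the higher count was 2 or 3. Of 12 interferon response genes 2 were higher and 2 lower (16.7% each). Of 15 immediate-early genes 5 were lower (33.3%, and 3 genes when CLP was left out). Of 6 MHC class II genes 4 were lower (66.7%, and 2 genes when CLP was left out). Small counts moved with single arrays, of preCFUE and of other fractions. Leaving out each preCFUE array in turn, for at least 2 of the 3, took the lower count from 1 to 0 for erythroid regulators, cholesterol synthesis and the respiratory chain, and from 2 to 1 for iron and the SLC7 and SLC38 genes. In the same way the higher count went from 1 to 0 for the BCL2 family and from 2 to 1 for interferon response and actin-binding genes. Without CLP replicate 1 the lower count was also 0 for erythroid regulators and cholesterol synthesis, and the higher count 0 for the BCL2 family. The lower count for iron was 1 without preGM replicate 1, and the higher count for actin-binding genes was 1 without CLP replicate 3.

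Choosing 1 probe set per gene mattered for size more than for direction. For some named genes, no other probe set passed against the mean of the 4 fractions. These include Mycn, Myh10, Atp1b2, Garem1, Nxpe2, Mfsd2b, Anxa1, Pim1, Glipr1, Atic, Mcm10, Nolc1, Nop56, Kit and Slamf1. With the mean over all probe sets of a gene, 43 of the 107 named differences from the mean of the 4 fractions that passed moved by over 1.5 times, Sphk1 to 2.59 and Cd93 to -1.93, and 106 kept the call. Of the 76 named calls against every fraction 36 moved that far and 69 were kept, those of Mcm10, Nop56, Nolc1, Atic, Plek, Sptbn1 and Cd47 being lost. Of the same 76, 52 were kept in all 17 fits that left out 1 array.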

How the data were processed

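Sorted cells were lysed and their RNA purified on micro columns, then amplified by 2 rounds of in vitro transcription for Affymetrix arrays, per the labels' protocols. The deposited values are intensities on a linear scale that the authors scaled and summarised with RMA, per the series' design text. All 45101 probe sets are in the deposited values, so the variability filter that the same text names was not in force. An annotation table named 34958 probe sets with 1 gene symbol and 932 with several, and did not list 9160 that were not controls. The 64 controls were known by their probe set names and left out, some of them with 1 symbol. The remaining 34945 probe sets with 1 symbol gave 18193 genes. For the 9010 genes with several probe sets, the one with the highest mean over the 17 arrays was used. Intensities were taken as log2(intensity + 16), with no further normalization, and fitted by group in limma 3.58.1 (R 4.3.3; lmFit, contrasts, eBayes), with Benjamini-Hochberg adjustment. The fit was tested on simulated data. The number of arrays limits the precision, and depth does not apply.

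Members and gene lists were chosen with earlier results of these data known. Named were the leading genes by difference from the nearest fraction and from the mean of the 4 fractions, and list members called against every fraction. Ank1, Hebp1, Nop56, Rrp9, Mthfd1l, Slc19a1, Kel, Mrpl47, Nup155, Sptbn1, Runx1, Pkm, Slc2a1, Cd47, Atf4, Myc and the gene families were chosen after their values were seen. Promoters and motifs came from RefSeq tables and were scanned in Python 3.11.15. Alternatives were other pseudocounts, quantile normalization, median centring, expression and variability filters, the mean over probe sets, array weights, covariates, each array or CLP left out, and a replicate block.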

Additional observations from a re-analysis of the deposited data

Results flagged for a closer look

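Single preMegE arrays stood apart from the other 4 of that fraction (Dixon's test) in 11 of 110 named genes checked. The genes were read from the same 5 arrays and are not independent, so this count cannot be set against a chance rate. On preMegE replicate 2, Itga2b was 209.4 (323.6 to 375.8 on the others), Tspan8 19.55 (42.79 to 53.99), Adgrg3 367.9 (498.2 to 557.9) and Itih5 54.4 (102.3 to 119.4). On replicate 3, Nxpe2 was 32.24 (11.16 to 15.36), Kel 250.2 (130.3 to 135.2), Mycn 964.7 (426.1 to 482.7) and Vim 2935 (1845 to 2072). On replicate 4, Cenpa was 487.7 (346.2 to 376.3), and on replicate 5 Mt1 was 618.4 (478.4 to 513.9) and Hebp1 57.79 (38.4 to 42.45).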

How the results depend on the processing

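The comparison rests on 3 preCFUE arrays, and counts of calls moved with single arrays. Most named differences kept their calls, but most were picked for their size in these same arrays. Keeping them is therefore no sign that they are more stable than other genes. Leaving out each array in turn gave 2438 to 4358 genes that differed from the mean of the 4 fractions, 1428 to 2849 higher and 1010 to 1509 lower. It gave 137 to 261 genes higher than every fraction, 86 to 155 lower than every fraction, and 955 to 1503 and 429 to 575 whose preCFUE arrays lay above or below all others, where fewer arrays make separation easier. The variability filter of the design text, which tests 2124 genes, left 1559 that differed (681 higher, 878 lower) and 288 and 231 lying above and below all others. Genes lower than every fraction were 225 with quantile normalization and 220 when CLP was left out, and genes higher than every fraction were 535 with array weights and 374 with the 3-prime to 5-prime ratio as a covariate. A covariate for neutrophil markers, chosen after seeing the data, gave 3641, with 224 higher and 114 lower than every fraction. Of the genes that differed, 63% were higher in the fit as reported, 54.5% with quantile normalization and 43.7% under the variability filter. Atf4, which did not pass, turned sign with quantile normalization (-0.091) and without preCFUE replicate 3 (its range over the fits without 1 array was -0.059 to 0.403).

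Arrays with the same replicate number did not deviate together throughout. Of 30 pairs between fractions 11 correlated above 0.1, over a range of -0.543 to 0.508, so the numbers were not taken to pair the arrays. For replicates 1, 2 and 3 the values were 0.508, 0.317 and -0.034 between preMegE and preCFUE, and 0.13, 0.424 and 0.215 between CLP and MkP. Whether some numbers mark a shared run was not tested. With the replicate block 3073 genes differed, 116 were higher and 73 lower than every fraction, and 188 of the 370 calls against every fraction were kept. Proteasome subunits then gave 13 higher genes. Among the named genes that lost the call with the block were Pkm, Sla, Runx1, Meis1 and Atp1b2 (limma, adjusted p from 0.059 to 0.0782).

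Of 107 named differences from the mean of the 4 fractions that passed, 105 kept the call in every fit without 1 array and 103 in every alternative; of 76 named calls against every fraction 52 and 44 did. The cause of these changes was not tested. Weak signal limits dim genes, since 47.3% of all values lay under 16.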
